A study of Mus musculus with 12 samples.

Results

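The genes of 10 serine/threonine phosphatase catalytic subunits other than PP2A were followed in naive CD4 T cells of WT mice and of PP2Ac transgenic mice. PP2Ac is the part of PP2A, protein phosphatase 2A, that removes the phosphate. The members were Ppp1ca, Ppp1cb, Ppp1cc, Ppp4c, Ppp5c, Ppp6c, Ppm1a, Ppm1b, Ppm1d and Ppm1g, and they were chosen by name as every probe set to which the array annotation gives 1 of these symbols. This gave 11 probe sets for 10 genes among 28853 in the table, and all 11 were among the 23410 that carry a gene symbol and were tested. Of the 11, 0 were shared with another gene. Both genotypes are on the C57BL/6 strain. Cells of each genotype were measured without stimulation (0 h) and after 6 h or 24 h in culture with soluble antibodies to CD3 (0.25 ug/mL) and CD28 (0.5 ug/mL) over plate-bound goat anti-hamster antibodies. Each of the 6 groups has 2 one-colour arrays, 1 of which carries the mark Rep in its title. The labels give neither the promoter of the transgene, nor the age of the mice, nor whether the arrays of a pair come from separate mice, so p-values measure the spread between these arrays. In such bulk RNA, fewer cells of a type and less RNA per cell cannot be told apart.

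Serine/threonine phosphatases remove phosphate from proteins, and their catalytic subunits fall into families. The PPP family holds PP1 (Ppp1ca, Ppp1cb, Ppp1cc), PP2A, its near relatives PP4 and PP6, calcineurin and PP5. Most of these work as complexes in which regulatory subunits choose the substrate. The PPM family (the Ppm1 genes) needs magnesium or manganese and mostly acts without such subunits. In T cells PP2A and its relatives restrain kinase signalling, and calcineurin carries the calcium signal of the T cell receptor to NFAT. The comparisons address whether a cell with excess PP2Ac has altered messenger RNA of other phosphatases, and how these genes move on activation.

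Each value is a log2 signal, so a difference of 1 is a 2-fold change, and differences are given ± SE of the limma fit. The 11 member probe sets read above the median of every array on 12 of 12 arrays. Levels are compared within a probe set only, since probes of different genes respond differently. All 7 measured T cell markers of a list of 8 (Cd3e, Cd3d, Cd3g, Cd4, Cd28, Cd5 and Thy1) also read above the array median throughout. Their summed level was 15.77 to 16.20 over the 12 arrays. The 3 WT arrays marked Rep stood apart in markers of neutrophils and monocytes. The summed level of 8 of 8 neutrophil markers was 11.46 to 12.53 there, 14.97 to 15.74 in the unmarked WT arrays and 14.07 to 15.65 in the transgenic arrays. The summed level of 7 of 7 monocyte markers was 11.81 to 12.64, 13.98 to 14.41 and 13.68 to 14.49 in the same order. Markers of NK cells, dendritic cells, B cells and CD8 T cells did not set these arrays apart in this way. In the average of transgenic against WT cells all measured markers of every list but that of T cells were positive. Medians were 0.47 for NK cells (4 of 4), 0.40 for dendritic cells (5 of 5) and 0.66 for erythroid cells (2 of 2). They were 1.10 for neutrophils (8 of 8) and 0.84 for monocytes (7 of 7). For B cells (4 of 4) and CD8 T cells (2 of 2) they were 0.15 and 0.30. Of 7 T cell markers 1 was positive (median -0.04), and 0 markers of any list passed. The part of these other cells in the results was not tested, and the calls that end without the 3 WT arrays marked Rep are given with their values. That fit has 1 array in each WT group and less precision.

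Ppp2ca, the gene of the transgene product, was higher in transgenic cells, and the other catalytic subunit genes showed no difference past the threshold. In WT cells Ppp2ca read 13.15 and 13.15 at 0 h, 13.42 and 13.30 at 6 h, and 13.24 and 13.18 at 24 h, the array marked Rep last. In transgenic cells it read 13.90 and 13.88, 13.80 and 13.69, and 13.86 and 13.76. The lowest transgenic array lay above the highest WT array. Averaged over the times, the difference was 0.57 ± 0.05 (95% interval 0.47 to 0.68, limma adjusted p = 0.0044). Leaving those 3 marked WT arrays out gave 0.55 ± 0.07, which did not pass (adjusted p = 0.10). Of the 11 member probe sets, 0 passed in this average, where 0.0256% of all probe sets passed. Of the members 0 had an unadjusted limma p under 0.05, where 1484 of 23410 probe sets did. If cells of 1 mouse gave the arrays of several times, the 6 arrays of a genotype are not independent and these p-values are too small.

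The members' averages ran from -0.11 in Ppp5c to 0.08 in Ppp1cb, with 6 of the 10 genes positive. Their median was 0.01, against -0.01 over all probe sets. The SE was 0.04 to 0.10, and the 95% intervals of the 11 probe sets lay between -0.33 and 0.18, so that the highest upper bound was below the lower bound of Ppp2ca. A p that misses the threshold does not show equal levels, and these intervals bound the differences the arrays could have missed.

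**Figure D1:**
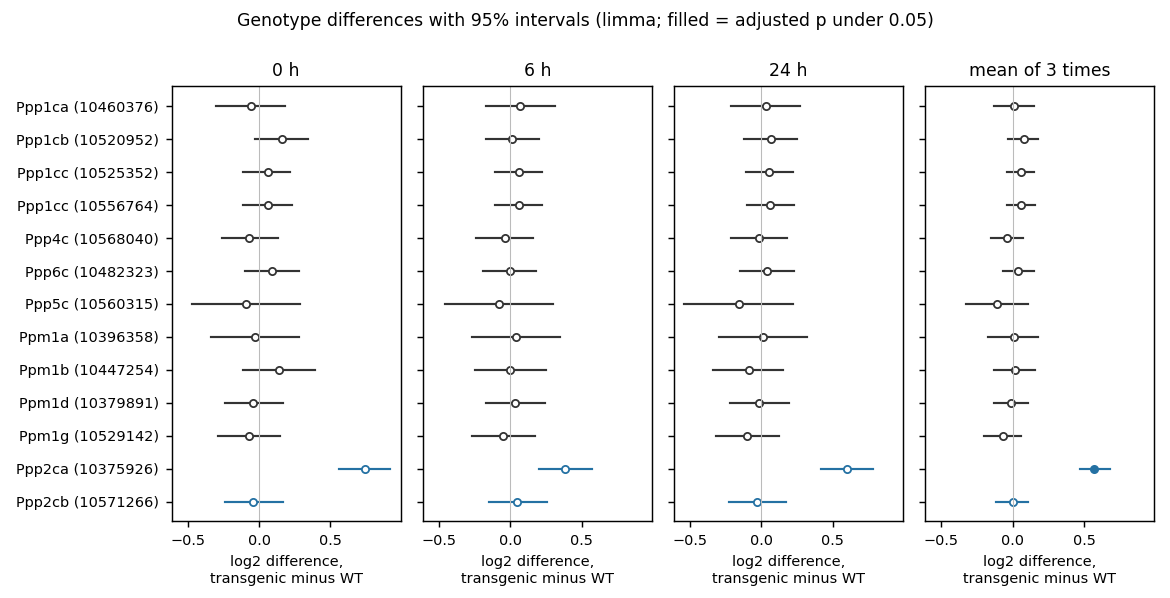
Log2 difference between transgenic and WT cells (x axis) for each probe set (y axis) at 0 h, 6 h and 24 h and averaged over the 3 times. Points are limma estimates, lines 95% intervals, and filled points have an adjusted p under 0.05. Ppp2ca (blue) stands to the right of the members, whose averages lie between -0.11 and 0.08, and every member interval includes 0.

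Among the near relatives of PP2A, Ppp4c, the gene of the PP4 catalytic subunit, differed by -0.04 ± 0.05 on average (95% interval -0.15 to 0.07). Ppp6c, the gene of the PP6 catalytic subunit, differed by 0.04 ± 0.05 (-0.07 to 0.15). Ppp2cb, which encodes the second PP2A catalytic isoform, had an interval of -0.12 to 0.11. With the arrays of all times pooled, those of WT and transgenic cells overlapped for all 3 genes. Changes with time widen the pooled ranges, so this overlap does not compare the genotypes at a given time. At 0 h alone the arrays of Ppp6c did not overlap.

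The PP1 genes differed by 0.01 ± 0.06 (Ppp1ca, -0.13 to 0.15), 0.08 ± 0.05 (Ppp1cb, -0.03 to 0.18) and 0.06 ± 0.04 (Ppp1cc, -0.04 to 0.15 in probe set 10525352). Ppp1cb had the smallest member p at 0 h (unadjusted p = 0.091, adjusted p = 1.0 in limma). It read 12.49 and 12.54 in WT and 12.69 and 12.66 in transgenic cells, a difference of 0.16 ± 0.08. These arrays did not overlap, nor at 0 h did those of Ppp1ca, Ppp1cc, Ppp5c, Ppp6c, Ppm1b and Ppm1d. The share of all probe sets without overlap was not counted, so this lack of overlap is a description and not a result about the members. At 0 h 0 members had an unadjusted limma p under 0.05, where 834 of 23410 probe sets did. At 6 h the Ppp1cb arrays of both genotypes overlapped (12.65 and 12.74 in WT, 12.61 and 12.79 in transgenic cells).

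Ppp5c encodes PP5, a phosphatase whose TPR domain binds the chaperone HSP90. It had the lowest average of the members, at -0.11 ± 0.10 (95% interval -0.33 to 0.11). The PPM genes averaged 0.01 ± 0.08 for Ppm1a and 0.02 ± 0.06 for Ppm1b, both known to act on stress kinase and NF-kB signalling. Ppm1d, the gene of the p53-induced phosphatase WIP1, differed by -0.01 ± 0.05, and Ppm1g, a nuclear phosphatase linked to splicing, by -0.07 ± 0.06.

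At the single times 0 of the 10 genes passed, where 0.00854% of all probe sets passed at 0 h, at 6 h and at 24 h alike. None of the members had an unadjusted limma p under 0.05 at any of these times. Of all 23410 probe sets, 834 did at 0 h, 610 at 6 h and 997 at 24 h. Members ran from -0.09 to 0.16 at 0 h, from -0.08 to 0.07 at 6 h and from -0.16 to 0.07 at 24 h. Ppp2ca differed by 0.74 ± 0.08, 0.38 ± 0.08 and 0.60 ± 0.08 at these times and did not pass at any of them either (limma adjusted p = 0.055, 1.0 and 0.28). At 0 h it passed with the replicate block, a term for the mark Rep (adjusted p = 0.035), on the values as deposited (0.043), without the dimmest probe sets (0.040), under trended and robust moderation (0.0019) and with array weights (0.029), and at 24 h it passed under trended and robust moderation (0.013). At single times the intervals of the members were wider, reaching from -0.47 to 0.39 at 0 h, from -0.46 to 0.35 at 6 h and from -0.54 to 0.32 at 24 h. At 6 h the value of Ppp5c rested on single arrays. It was -0.36 without the WT array marked Rep at 6 h, -0.24 without the unmarked transgenic array, 0.07 without the transgenic array marked Rep and 0.20 without the unmarked WT array, with an adjusted p of 1.0 in each. Ppp1ca at 6 h ranged up to 0.20, without the transgenic array marked Rep. The averages without those 3 WT arrays lay between -0.20 in Ppp5c and 0.12 in Ppm1a, and 0 members passed, in a fit in which Ppp2ca did not pass.

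On activation Ppp5c, Ppm1g and Ppp4c rose, and Ppm1a and Ppm1b fell. Each passed in at least 1 comparison of times, in WT cells, transgenic cells or both. The share of all probe sets passing in at least 1 of these comparisons was not counted. At 6 h in WT cells 3 of the 10 genes rose and 1 fell, where 12.6% and 13.9% of all probe sets did. In transgenic cells the counts at 6 h were also 3 and 1, against 12.5% and 12.9%. The comparisons of 6 h and of 24 h with 0 h share the arrays at 0 h. At 24 h against 0 h, 2 rose and 2 fell in WT cells (background 12.9% and 13.8%) and 3 rose and 2 fell in transgenic cells (12% and 11.8%). From 6 h to 24 h 0 rose and 1 fell in each genotype, where 7.49% and 5.86% of all probe sets did in WT and 7.89% and 6.42% in transgenic cells. These are counts of 10 genes, read beside the backgrounds as a description. Markers of other cells also moved with time in WT cells. At 24 h 2 of 4 NK markers (median -1.22) and 3 of 5 dendritic cell markers (median -0.38) fell, and at 6 h 2 of 4 B cell markers fell (median -1.01). Of 7 T cell markers 3 fell and 1 rose at 6 h (median -0.38), and 0 passed at 24 h. In transgenic cells at 24 h 2 of 4 NK markers (median -1.38), 2 of 5 dendritic cell markers (median -0.65) and 2 of 2 erythroid markers (median -2.08) fell. There 1 of 2 CD8 markers rose (median 1.24), and 1 of 7 T cell markers rose (median 0.15). At 6 h 2 of 4 B cell markers fell (median -1.06), and of 7 T cell markers 3 fell and 2 rose (median -0.30). In WT cells 1 of 2 erythroid markers fell at 24 h (median -0.85). Of 7 monocyte markers 1 fell at 24 h in each genotype (median -0.59 in WT and -0.34 in transgenic cells). Of 8 neutrophil markers 0 passed and 0 were positive at 24 h in each genotype (median -0.82 in WT and -1.22 in transgenic cells). The part of these shifts in the members' changes was not tested.

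**Figure D2:**
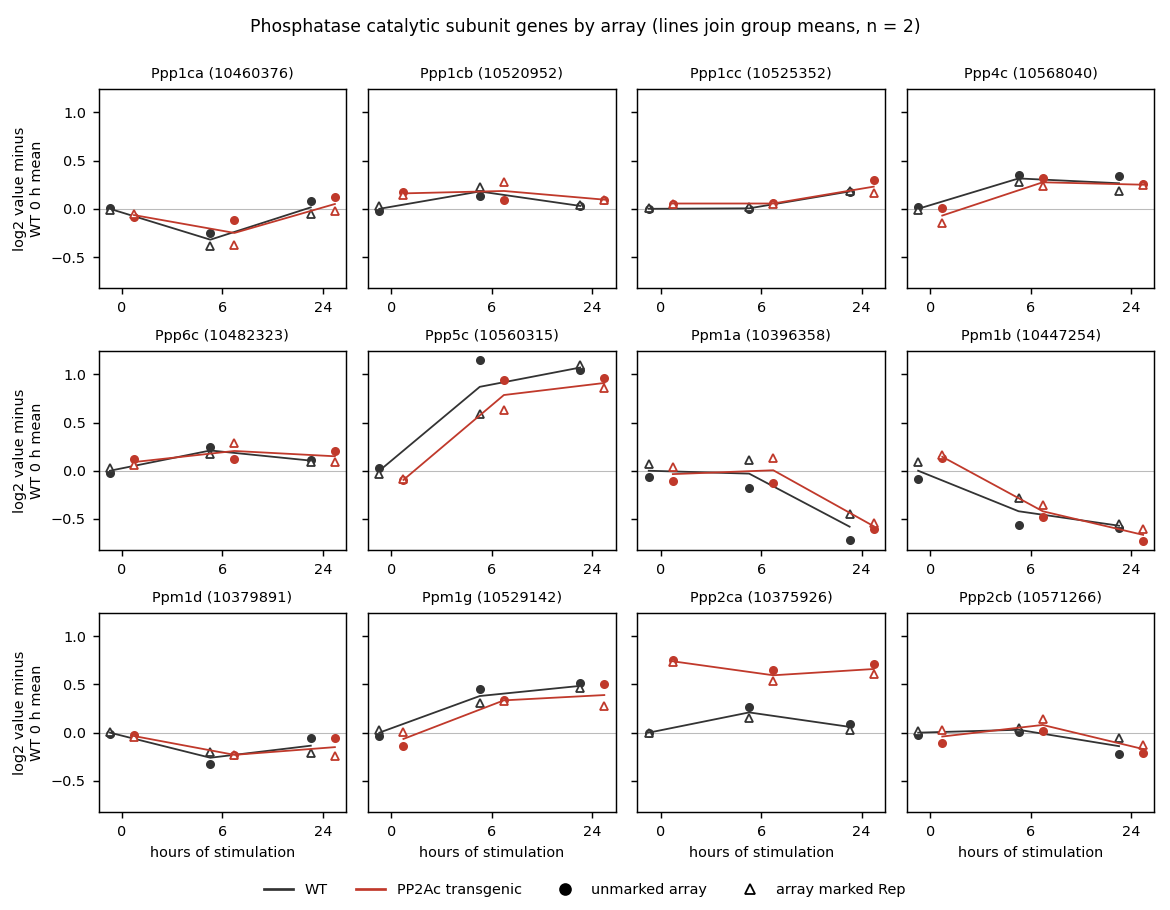
Log2 value of each array minus the WT mean at 0 h (y axis) by hours of stimulation (x axis) for the members, with Ppp2ca and Ppp2cb for reference. Filled circles are unmarked arrays, open triangles arrays marked Rep, and lines join the means of 2 arrays in WT (black) and transgenic (red) cells. Ppp5c rises by about 1 in both genotypes, Ppm1a falls only between 6 h and 24 h, and Ppp2ca lies higher in transgenic cells at all 3 times.

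Ppp5c made the largest move of the members at both stimulated times. In WT cells it read 11.20 and 11.14 at 0 h, 12.32 and 11.76 at 6 h, and 12.21 and 12.27 at 24 h. In transgenic cells it read 11.07 and 11.08, 12.11 and 11.80, and 12.13 and 12.03. Every stimulated array lay above every unstimulated one, and at 6 h the array marked Rep was the lower of the pair in both genotypes. At 6 h the rise was 0.87 ± 0.17 in WT cells (1.82-fold, limma adjusted p = 0.0041) and 0.88 ± 0.17 in transgenic cells (1.84-fold, 0.0040). At 6 h in WT cells it was 1.12 within the unmarked arrays and 0.61 within those marked Rep, and in transgenic cells 1.04 and 0.72. At 24 h it was 1.07 ± 0.17 in WT (2.10-fold, adjusted p = 0.0016) and 1.0 ± 0.17 in transgenic cells (2.01-fold, 0.0027). From 6 h to 24 h it differed by 0.20 ± 0.17 and 0.13 ± 0.17, neither past the threshold. The 4 calls of Ppp5c held in 12 of 12 fits that left out 1 array each.

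Ppm1g rose by 6 h as well. It read 10.91 and 10.97 at 0 h, 11.39 and 11.25 at 6 h and 11.45 and 11.40 at 24 h in WT cells. In transgenic cells it read 10.80 and 10.95, 11.28 and 11.27, and 11.44 and 11.22. Again no stimulated array overlapped the unstimulated ones of its genotype. The rise was 0.38 ± 0.10 at 6 h and 0.48 ± 0.10 at 24 h in WT cells (limma adjusted p = 0.018 and 0.0055), and 0.40 ± 0.10 and 0.46 ± 0.10 in transgenic cells (0.014 and 0.0088). The WT calls ended with the 3 marked WT arrays left out, at rises of 0.48 (adjusted p = 0.082) and 0.54 (0.070). The 6 h call in WT ended without either array at 0 h or without the unmarked array at 6 h (0.31 to 0.41, adjusted p from 0.057 to 0.12). In transgenic cells the 6 h call ended without the unmarked array at 0 h or either array at 6 h (0.32 to 0.40, adjusted p from 0.060 to 0.11). The 24 h call there ended without the unmarked array at 0 h (0.38, adjusted p = 0.068) or at 24 h (0.35, adjusted p = 0.074).

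Ppp4c rose least of these genes. PP4 acts in DNA damage repair, centrosome function and lymphocyte growth. It read 11.94 and 11.91 at 0 h, 12.28 and 12.20 at 6 h and 12.27 and 12.11 at 24 h in WT cells, and 11.93 and 11.78, 12.24 and 12.16, and 12.18 and 12.17 in transgenic cells. All stimulated arrays lay above the unstimulated arrays. At 6 h the rise was 0.32 ± 0.09 in WT (limma adjusted p = 0.025) and 0.34 ± 0.09 in transgenic cells (0.018). At 24 h Ppp4c passed in transgenic cells (0.32 ± 0.09, adjusted p = 0.027). In WT cells it read 0.27 ± 0.09 at 24 h and did not pass (adjusted p = 0.051, and 0.024 with the replicate block). That WT value also passed on deposited values without the quantile step (adjusted p = 0.037), with equal array medians (0.042), without the dimmest probe sets (0.032), under trended and robust moderation (0.032) and without the WT array marked Rep at 24 h (0.35, adjusted p = 0.048). The WT call at 6 h ended without any 1 of its 4 arrays (0.28 to 0.36, adjusted p from 0.051 to 0.13) and with the 3 marked WT arrays left out (0.34, adjusted p = 0.14). The transgenic call at 6 h ended without the unmarked array at 6 h (0.31, adjusted p = 0.10) or the array marked Rep at 0 h (0.27, adjusted p = 0.13). The transgenic call at 24 h ended without either array at 24 h or the array marked Rep at 0 h (0.25 to 0.32, adjusted p from 0.092 to 0.18), and with the 3 marked WT arrays left out (0.32, adjusted p = 0.052).

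Ppp5c, Ppp4c and Ppm1g moved together on activation, so the 250 bases before the annotated start of each are shown, read on the gene's strand from RefSeq (GRCm38.p6). The stretches are chr7:17027915-17028164 (minus strand) for Ppp5c, chr7:126792548-126792797 (minus strand) for the first listed start of Ppp4c, and chr5:31220546-31220795 (minus strand) for Ppm1g. Capitals mark matches on either strand to 5 motifs, and neighbouring matches run together. The cyclic AMP response element (CRE) was searched as TGACGTCA. The E-box was searched as CACGTG. For an ETS site the letters were CTTCCGG. The CCAAT box was searched by that name, and for the GC box the letters were GGGCGG.
Ppp5c: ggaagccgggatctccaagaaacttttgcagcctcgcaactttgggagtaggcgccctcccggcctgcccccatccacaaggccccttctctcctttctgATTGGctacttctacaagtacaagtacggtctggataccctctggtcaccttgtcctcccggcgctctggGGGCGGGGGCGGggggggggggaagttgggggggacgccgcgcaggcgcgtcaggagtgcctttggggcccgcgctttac
Ppp4c: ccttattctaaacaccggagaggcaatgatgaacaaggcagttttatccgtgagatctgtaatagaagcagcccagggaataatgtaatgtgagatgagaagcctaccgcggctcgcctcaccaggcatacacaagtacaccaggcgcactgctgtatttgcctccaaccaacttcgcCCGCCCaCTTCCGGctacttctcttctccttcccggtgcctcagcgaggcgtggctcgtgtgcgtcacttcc
Ppm1g: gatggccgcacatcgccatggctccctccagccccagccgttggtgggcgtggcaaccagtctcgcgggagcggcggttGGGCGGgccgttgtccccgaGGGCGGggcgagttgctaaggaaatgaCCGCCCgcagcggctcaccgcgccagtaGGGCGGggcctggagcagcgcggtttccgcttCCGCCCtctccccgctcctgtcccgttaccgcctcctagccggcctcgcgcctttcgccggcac
The Ppp5c window of 300 bases, which runs to 50 bases after the start, held 1 CCAAT match and 2 GC boxes. The first Ppp4c window held 3 ETS matches, of which 1 lies wholly within the bases shown, and 1 GC box. The Ppm1g window held 5 GC boxes and no match to the other motifs. Of 32851 such windows of all genes, 8.86% held the ETS letters, 37.4% CCAAT, 35.7% the GC box, 7.15% the E-box and 1.79% the CRE. Letters that match are a description and do not show that a factor binds.

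Ppm1a did not pass at 6 h and fell by 24 h in both genotypes. PPM1A removes phosphate from stress kinases and from SMAD proteins. In WT cells it read 11.50 and 11.63 at 0 h, 11.39 and 11.68 at 6 h, and 10.85 and 11.12 at 24 h. In transgenic cells it read 11.46 and 11.60, 11.44 and 11.70, and 10.96 and 11.02. The arrays at 24 h lay below all others, and the array marked Rep was the higher of every pair. Against 0 h the difference at 6 h was -0.03 ± 0.14 in WT and 0.04 ± 0.14 in transgenic cells. At 24 h it was -0.58 ± 0.14 in WT (1.5-fold lower, limma adjusted p = 0.012) and -0.54 ± 0.14 in transgenic cells (1.46-fold lower, 0.019). From 6 h to 24 h it fell by 0.55 ± 0.14 (WT, adjusted p = 0.030) and 0.58 ± 0.14 (transgenic, 0.022), and it was the only member to pass in that comparison. With the 3 marked WT arrays left out the WT value from 6 h to 24 h was -0.54 and did not pass (adjusted p = 0.11). Against 0 h the WT call ended without the unmarked array at 24 h (-0.45, adjusted p = 0.081) or the array marked Rep at 0 h (-0.52, adjusted p = 0.077). From 6 h to 24 h it ended without the unmarked array at 24 h (-0.42, adjusted p = 0.18) or the array marked Rep at 6 h (-0.40, adjusted p = 0.17). The transgenic call against 0 h ended without any 1 of its 4 arrays (-0.61 to -0.47, adjusted p from 0.052 to 0.12). That from 6 h ended without either array at 24 h or the array marked Rep at 6 h (-0.61 to -0.45, adjusted p from 0.068 to 0.15).

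Ppm1b, whose product acts on the kinases of TAK1 and NF-kB signalling, was lower at both stimulated times. It read 9.11 and 9.29 at 0 h, 8.64 and 8.92 at 6 h and 8.61 and 8.65 at 24 h in WT cells. In transgenic cells it read 9.33 and 9.36, 8.72 and 8.84, and 8.47 and 8.60. No stimulated array overlapped the unstimulated ones. At 6 h the difference was -0.42 ± 0.11 in WT (limma adjusted p = 0.019) and -0.56 ± 0.11 in transgenic cells (0.0045). At 24 h it was -0.58 ± 0.11 in WT (1.49-fold lower, adjusted p = 0.0043) and -0.81 ± 0.11 in transgenic cells (1.75-fold lower, 0.0010). The WT values were -0.47 and -0.51 with the 3 marked WT arrays left out and did not pass (adjusted p = 0.056 for both). The WT call at 6 h also ended without the unmarked array at 6 h (-0.28, adjusted p = 0.14) or the array marked Rep at 0 h (-0.33, adjusted p = 0.13).

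The larger fall of Ppm1b in transgenic cells was not past the threshold as a difference between genotypes. At 24 h the transgenic response minus the WT response was -0.23 ± 0.15 (95% interval -0.58 to 0.12, unadjusted p = 0.16, limma adjusted p = 1.0). It was the largest such difference of the members at that time. Across the 10 genes these differences ran from -0.14 to 0.13 at 6 h and from -0.23 to 0.10 at 24 h. Of the members 0 passed at either time and 0 had an unadjusted p under 0.05, and 0.0% of all probe sets passed at 6 h or at 24 h (420 and 625 of 23410 had an unadjusted limma p under 0.05). The intervals were wide, reaching from -0.53 to 0.54 at 6 h and from -0.60 to 0.48 at 24 h.

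**Figure D3:**
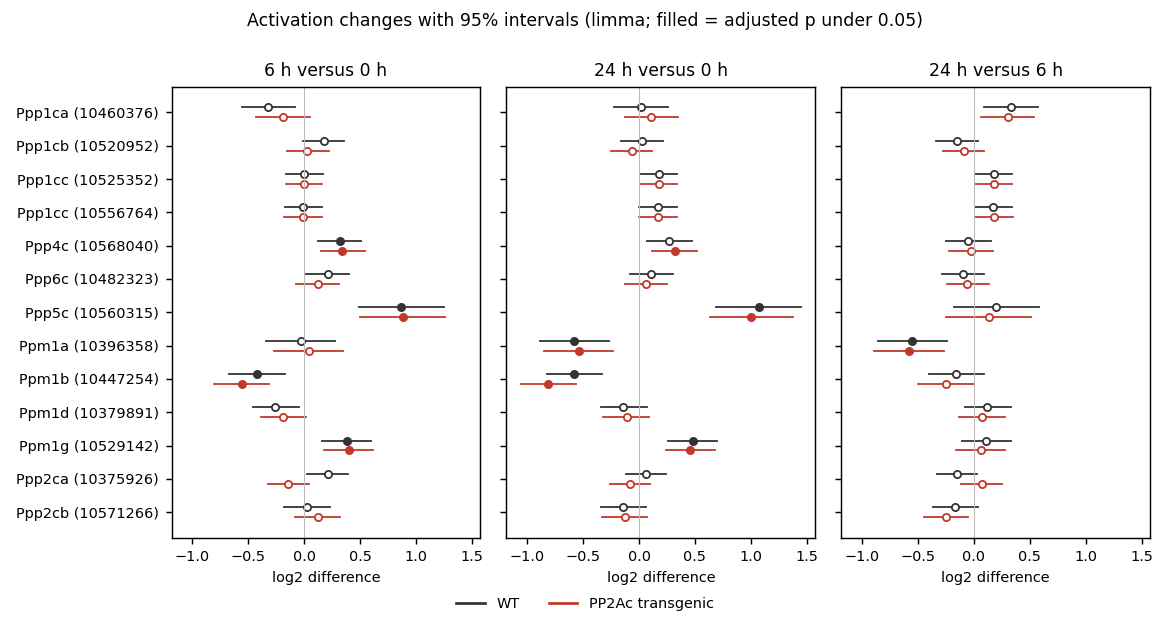
Log2 difference between times (x axis) for each probe set (y axis) in WT (black) and transgenic (red) cells. Points are limma estimates, lines 95% intervals, and filled points have an adjusted p under 0.05. Ppp5c shows the largest rises (0.87 and 0.88 at 6 h), and Ppm1a moves between 6 h and 24 h in both genotypes.

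The remaining 5 genes did not pass on activation in either genotype. Ppp1ca encodes the alpha isoform of PP1, and it did not pass at 6 h in either genotype. It read 13.15 and 13.13 at 0 h, 12.89 and 12.75 at 6 h and 13.22 and 13.09 at 24 h in WT cells. In transgenic cells it read 13.06 and 13.09, 13.02 and 12.76, and 13.26 and 13.12. The 6 h arrays were the lowest of each genotype, and those at 0 h and 24 h overlapped in WT cells. At 6 h the WT difference was -0.32 ± 0.11 (limma adjusted p = 0.057, and 0.024 with the replicate block). The transgenic difference was -0.19 ± 0.11 (adjusted p = 0.27), and it was -0.05 without the array marked Rep at 6 h and -0.32 without the unmarked one (adjusted p = 0.82 and 0.088). From 6 h to 24 h it was 0.33 ± 0.11 in WT (adjusted p = 0.074, and 0.031 with the block) and 0.30 ± 0.11 in transgenic cells (0.10, and 0.045 with the block). The WT value at 6 h also passed without the dimmest probe sets (adjusted p = 0.039), under trended and robust moderation (0.027) and without either transgenic array at 6 h (0.036 for both). The WT value from 6 h to 24 h passed under trended and robust moderation as well (0.039).

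Ppp1cb and Ppp1cc, the beta and gamma isoforms of PP1, moved less. Ppp1cb ran from 12.49 to 12.79 over the 12 arrays, with a WT difference of 0.18 ± 0.08 at 6 h (limma adjusted p = 0.16) and 0.03 ± 0.08 in transgenic cells (0.85). Ppp1cc has a pair of probe sets that list the same 8 accessions and read within 0.029 of each other on every array (r = 0.998 over 12 arrays), so they count as 1 measurement. In 10525352 it read 12.77 and 12.78 at 0 h and 12.95 and 12.96 at 24 h in WT cells, a difference of 0.18 ± 0.07 (adjusted p = 0.10, and 0.046 under trended and robust moderation). In transgenic cells the same difference was 0.18 ± 0.07 (adjusted p = 0.12), and at 6 h the arrays overlapped those at 0 h in both genotypes.

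Ppp6c ran from 11.49 to 11.80, with differences of 0.21 ± 0.08 in WT (limma adjusted p = 0.10) and 0.12 ± 0.08 in transgenic cells (0.38) at 6 h. Ppm1d, which ends the p53 and DNA damage response, read 11.54 and 11.56 at 0 h and 11.23 and 11.35 at 6 h in WT cells. Its difference at 6 h was -0.26 ± 0.09 in WT (adjusted p = 0.066, and 0.043 without the dimmest probe sets) and -0.19 ± 0.09 in transgenic cells (0.18). At 24 h it was -0.14 ± 0.09 and -0.11 ± 0.09.

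A full CRE, the letters bound by CREB and ATF factors, lies in the windows of Ppm1a and Ppm1d and of Ppp2ca. Among the members it was found in Ppm1a and Ppm1d alone, of 9 with a window in the RefSeq table, and 1.79% of all windows hold it. It starts 136, 85 and 26 bases before the annotated start. The stretches of 40 bases around it are chr12:72761059-72761098 for Ppm1a, chr11:85311153-85311192 for Ppm1d and chr11:52098782-52098821 for Ppp2ca, all on the plus strand, with the CRE in capitals.
Ppm1a: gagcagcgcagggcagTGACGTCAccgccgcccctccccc
Ppm1d: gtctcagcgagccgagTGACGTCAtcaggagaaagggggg
Ppp2ca: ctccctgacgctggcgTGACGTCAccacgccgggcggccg
On activation Ppm1a fell by 24 h, Ppm1d did not pass at any time, and Ppp2ca did not pass in WT cells at 6 h (0.21 ± 0.08, limma adjusted p = 0.090, and 0.031 under trended and robust moderation) or at 24 h (0.06 ± 0.08, adjusted p = 0.67). In transgenic cells Ppp2ca read -0.14 ± 0.08 at 6 h (adjusted p = 0.26), a response that differed from that in WT cells by -0.35 ± 0.11 (unadjusted p = 0.013, adjusted p = 1.0). Messenger RNA of the Ppp2ca gene and of the transgene, whose promoter the labels do not give, was not told apart in this value.

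PP5 is one of several proteins that bind HSP90, and a list of 6 genes of HSP90 and its other cochaperones was set beside Ppp5c. Hsp90ab1 was not measured. In WT cells 5 of 5 measured genes rose at 6 h and at 24 h (medians 1.17 and 0.80), where 12.6% and 12.9% of all probe sets rose (medians -0.01 and -0.02). In transgenic cells 5 of 5 rose at 6 h and 4 of 5 at 24 h (medians 1.23 and 0.69), against 12.5% and 12% of all probe sets. Stip1, the gene of the cochaperone HOP, read 11.56 and 11.59 at 0 h and 13.12 and 12.79 at 6 h in WT cells (1.38 ± 0.12, limma adjusted p = 5.2e-05). Hsp90aa1, the gene of inducible HSP90, read 12.41 and 12.38 at 0 h and 13.79 and 13.56 at 6 h (1.28 ± 0.10, adjusted p = 3.4e-05). Fkbp4 and Fkbp5, immunophilins with a TPR domain, rose by 1.17 ± 0.14 and 0.46 ± 0.10. With the 3 marked WT arrays left out, fewer of these genes passed in WT cells at 6 h, and Fkbp5 read 0.33. Without the WT array marked Rep at 0 h alone, fewer passed as well, and Fkbp5 read 0.41. The call of Fkbp5 ended in both fits. In the average of transgenic against WT cells 0 of the 5 passed, with a median of -0.06.

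Among 24 PP1 regulators, which direct PP1 to its substrates or inhibit it, 5 rose and 10 fell in WT cells at 24 h (median -0.24), where 12.9% and 13.8% of all probe sets did. In transgenic cells 4 rose and 8 fell (median -0.13), against 12% and 11.8%. Ppp1r14b, a PP1 inhibitor, rose by 1.89 ± 0.12 at 6 h and 1.34 ± 0.12 at 24 h in WT cells (limma adjusted p = 2.0e-05 and 0.00013). Ppp1r12a, the myosin-targeting subunit, fell by 0.51 ± 0.08 at 24 h, Phactr4 by 0.81 ± 0.12 and Ppp1r21 by 0.74 ± 0.10. With the 3 marked WT arrays left out, fewer genes of the list passed in WT cells at 24 h. Phactr4 read -0.65 and Ppp1r12a -0.52, and neither call held. With equal array medians 6 fell there. Leaving out 1 array gave 2 to 5 higher and 7 to 11 lower in WT cells, with 2 higher without the unmarked array at 0 h or the array marked Rep at 24 h. The same in transgenic cells gave 1 to 4 higher and 5 to 8 lower, with 1 higher and 5 lower without the unmarked array at 24 h and 2 higher without any other of the 4 arrays compared. In the averaged genotype comparison 0 of 24 passed.

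Of 11 PP4 and PP6 subunit genes, 1 rose and 2 fell in WT cells at 24 h, a share near the 12.9% and 13.8% of all probe sets. In transgenic cells 1 rose and 3 fell (12% and 11.8% of all probe sets). Leaving out 1 array gave 0 to 1 higher there, 0 without either unmarked array compared, and 1 to 3 lower, 1 without the unmarked array at 24 h or the array marked Rep at 0 h. Ankrd28, a scaffold of PP6, rose by 0.96 ± 0.08 at 6 h and 0.42 ± 0.08 at 24 h in WT cells (limma adjusted p = 5.3e-05 and 0.0044), while Ppp6c itself did not pass. Ppp6r2 fell by 0.86 ± 0.12 at 6 h and read -0.34 ± 0.12 at 24 h (adjusted p = 0.074, and -0.51 with adjusted p = 0.019 without the unmarked WT array at 24 h). Ppp6r3 fell by 0.36 ± 0.08 and Ppp4r1 by 0.46 ± 0.09 at 24 h. With the 3 marked WT arrays left out, Ankrd28 read 0.42, Ppp4r1 -0.40 and Ppp6r3 -0.43 in WT cells at 24 h, and their calls ended. Ppp6r3 also did not pass with equal array medians (-0.30, limma adjusted p = 0.065). Among 5 factors that assemble or modify the PP2A family, Lcmt1, the enzyme that methylates its catalytic subunits, rose by 0.65 ± 0.09 and Ptpa, a PP2A activator, by 0.46 ± 0.10 in WT cells at 24 h (limma adjusted p = 0.00099 and 0.0065). Ptpa did not pass with the 3 marked WT arrays left out (0.45, adjusted p = 0.089). Ppme1, which removes that methyl group, read 0.25 ± 0.10 and Tiprl -0.21 ± 0.08, neither past the threshold. In the averaged genotype comparison 0 of these 11 and 0 of these 5 passed.

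Among 21 other catalytic genes, 1 rose and 5 fell in WT cells at 24 h, where 12.9% and 13.8% of all probe sets did. The rises numbered 3 with the replicate block and 1 to 2 without 1 array, being 2 without the WT array marked Rep at 0 h or either transgenic array at 0 h. In transgenic cells 2 rose and 5 fell, against 12% and 11.8%. Genes of the calcineurin catalytic subunit went opposite ways at 24 h. Ppp3ca read 11.55 and 11.51 at 0 h and 10.35 and 10.34 at 24 h in WT cells (-1.19 ± 0.15, limma adjusted p = 0.00050). Ppp3cc read 10.98 and 10.84 and then 12.06 and 12.07 (1.16 ± 0.11, adjusted p = 0.00017). Phlpp1, a phosphatase of AKT, fell by 1.81 ± 0.27 and Ppm1h by 0.74 ± 0.10. In the averaged genotype comparison 1 of 21 passed, which was Ppp2ca. With the 3 marked WT arrays left out, fewer of these genes were called lower in WT cells at 24 h.

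Of 15 listed p53 targets, the group to which Ppm1d belongs, 13 were measured. In WT cells 4 rose and 1 fell at 6 h (median 0.63), where 12.6% and 13.9% of all probe sets did. At 24 h 2 rose and 2 fell (median 0.39), near the 12.9% and 13.8% of all probe sets. Leaving out 1 array gave 0 rises at 24 h without the WT array marked Rep at that time, 4 without the unmarked one, and 1 without either WT array at 0 h or any 1 transgenic array. Aen, a p53-induced nuclease, rose by 1.61 ± 0.20 at 6 h, and Btg2, an antiproliferative gene, fell by 1.10 ± 0.15 (limma adjusted p = 0.00033 and 0.00050). Trp53inp1 rose by 0.63 ± 0.09 at 6 h and fell by 0.47 ± 0.09 at 24 h, and Ei24 rose by 0.52 ± 0.16 at 24 h (limma adjusted p = 0.042). With the 3 marked WT arrays left out, Ei24 read 0.33 at 24 h in WT cells. Aen read 0.59 at 24 h, where the main fit gave 0.86, and neither of these 24 h calls held. Ei24 read 0.69 at 6 h, where the main fit gave 0.47. In the averaged genotype comparison 0 of 13 passed.

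**Figure D4:**
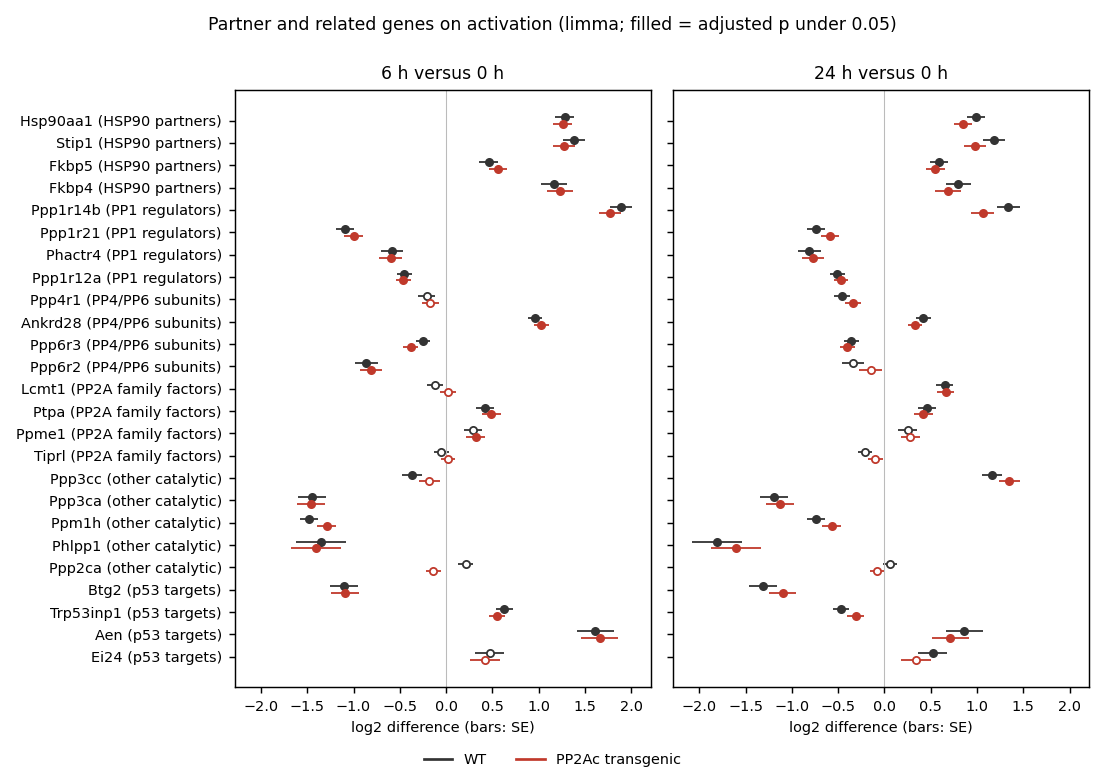
Log2 difference from 0 h at 6 h and at 24 h (x axis) for listed partner and related genes (y axis) in WT (black) and transgenic (red) cells. Points are limma estimates, bars SE, and filled points have an adjusted p under 0.05. The genes of HSP90 and its cochaperones lie to the right at both times, and Ppp3ca (-1.19) and Ppp3cc (1.16) lie on opposite sides at 24 h.

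The genes most like each changed member were sought by Pearson correlation over the 12 arrays among 20357 probe sets. The arrays share the activation times, so high values are common and are given as a description. Closest to Ppp5c were Srsf9 (r = 0.992), a splicing factor, Dpp3 (0.991) and Eif2a (0.989). Closest to Ppm1g were Atp5j (0.989), Ndufc1 (0.986) and Alyref (0.986), the last an mRNA export factor and the former pair genes of mitochondrial respiration. Closest to Ppp4c were Stoml2 (0.968), Nacc1 (0.965) and Timm17b (0.962). Ppm1a was closest to Ralgapa1 (0.986), Zbtb10 (0.981) and Zc3h13 (0.980), and Ppm1b to Nbeal1 (0.987), Oser1 (0.986) and Rnf103 (0.985).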

How the data were processed

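Total RNA was measured on 12 one-colour arrays with biotin-labelled cDNA, per the labels' protocols. The authors deposited 1 value per probe set and array (3.49 to 15.38), read here as log2 from its range; summarisation and normalisation are not given in the sources used here. Array medians ran from 7.39 to 7.50, over the limit of 0.1, so arrays were quantile normalised. Probe symbols came from the platform annotation; probe sets with several symbols were tested but not named.

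limma 3.58.1 (R 4.3.3) fitted a mean per group over 12 arrays (6 residual and 3.05 prior degrees of freedom), with Benjamini-Hochberg adjustment over 23410 probe sets in each of 12 comparisons and a threshold of 0.05. In lists, a gene with several probe sets was represented by that of the highest mean. The text names every member, Ppp2ca, Ppp2cb, list genes past the threshold between genotypes, those among the 4 smallest p of a list in WT at 24 h, and the 3 genes most like each changed member. Members, lists and alternatives were chosen with earlier results of these data known. Unmarked minus marked values correlated between all 15 pairs of groups (0.138 to 0.591). The mark Rep was therefore fitted as a block in an alternative, while the main fit and its calls leave this pairing out. Other alternatives were the deposited values, equal array medians, leaving out the dimmest 40% of probe sets, testing all rows, trended and robust moderation, array weights, and leaving out the 3 WT arrays marked Rep or each array. The number of arrays limits precision. The fit was tested on simulated data. Figures used Python 3.11.15 and matplotlib 3.10.9.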

Additional observations from a re-analysis of the deposited data

How the results depend on the processing

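Of the 19 activation calls of the members, 8 held in all 12 fits without 1 array, in which a lone array is assumed to vary like the other groups, and 12 held under the other 8 alternatives. The 7 that did not were lost without the 3 WT arrays marked Rep. That fit has 1 array in each WT group and fewer residual degrees of freedom. The share of all probe sets passing in it was not counted. Whether calls ended there through its lower precision was not tested. The replicate block gave 2 from 6 h to 24 h in each genotype and ended no member's call. Trended and robust moderation gave 2 for WT from 6 h to 24 h. Leaving out 1 array, the counts ran from 1 to 5 for WT at 6 h, 3 to 5 for WT at 24 h, 0 to 1 from 6 h to 24 h in each genotype, 2 to 4 for transgenic cells at 6 h and 2 to 5 at 24 h. Between genotypes, and for the difference in response, the count was 0 of 11 under every alternative. No called difference of a member, of Ppp2ca or of a named list gene changed sign. The call of Ppp2ca averaged over the times held under the alternatives other than leaving out the 3 marked WT arrays. With 2 arrays a group, the 95% intervals give the precision if the arrays are independent.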
